A study of Rattus norvegicus with 12 samples.

Results

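The genes described here are those with a lower read count in every day 1 library of a rat T cell experiment than on day 0. They were chosen by CPM, the count of a gene divided by the library total and multiplied by 1000000. A member had, in each of the 6 libraries of day 1, at most 0.6 times its mean CPM over the 6 libraries of day 0, and a mean of at least 5 CPM on day 0. The rule found 131 genes among 32623 listed identifiers, which is 1.42% of the 9252 identifiers with at least 5 CPM on day 0. The difference between the days is therefore what chose the genes. It is described below, and nothing is read from tests of it on the members.

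The cells were MBP-reactive T cells, sorted by their fluorescent label from digested lungs of wild type LEW/Crl rats aged 6 to 8 weeks. MBP, or myelin basic protein, belongs to the insulating sheath of nerve fibres and is a classic target of T cells in models of autoimmunity. The lungs had received PBS (phosphate-buffered saline) or NEO through the trachea for 7 days, in a study of how antibiotics affect these T cells. The labels do not spell out NEO. MBP was then given by the same route, and cells were taken on day 0 or day 1. Each of the 4 groups (PBS day 0, NEO day 0, PBS day 1 and NEO day 1) held 3 libraries, numbered by lung. All day 1 libraries came after MBP and none without it was taken that day, so immunization, time and sorting batch cannot be told apart. The sort collects a population, and fewer cells of a kind and less RNA per cell cannot be told apart either.

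When a T cell meets its antigen it leaves a resting state, grows and divides. Transcripts that keep a resting T cell small, long-lived and circulating are known to be withdrawn in that step, while those for growth and effector function are made. That is background and not a result here. The files name genes by Ensembl identifier, 0 of these identifiers matched the RefSeq gene table used here, and so the members cannot be placed in such roles by these data. Marker genes of T cells and of other cells were not analysed here for the same reason. The members are therefore described by their levels, and 2 of them by identifier.

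Library totals ran from 7776335 to 16636349 counts, and 3 counts, the most that an observed 0 leaves possible, were 0.18 to 0.386 CPM. Across the identifiers with at least 5 CPM on day 0, the median ratio to the day 0 mean was 0.951 to 1.05 in the 6 day 0 libraries and 0.964 to 0.981 in the 6 day 1 libraries. A single library stood apart, NEO day 0 replicate 1. It was at least 2-fold above the mean of the other 5 day 0 libraries for 6.30% of the 9252 identifiers and at or under 0.5 times that mean for 5.84%. Its values in the members are given next, because membership depends on it for many of them.

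Of the 131 members, 89 also met the rule when NEO day 0 replicate 1 was left out, and 42 met it only with that library. This split was made after seeing the data. Each of the 42 had its highest day 0 level in NEO day 0 replicate 1, at a median of 2.58 times the mean of the other 5 day 0 libraries and up to 214 times. Without it, 34 of them exceeded the ceiling of 0.6 in some day 1 library and 8 dropped under 5 CPM. For 7 of the 42, the mean of the 6 day 1 libraries was above the mean of the other 5 day 0 libraries, so the label of falling genes does not hold for these 7 outside that library.

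A member with 1 of the largest such gaps had 44.3 CPM (429 counts) in NEO day 0 replicate 1. The other 5 day 0 libraries had 2, 3, 4, 4 and 2 counts for it. Its day 1 counts were 15, 8 and 8 in PBS and 4, 6 and 3 in NEO, so in PBS each day 1 count was above each day 0 count, at levels near the limit of 3 counts. Among the 8 members with a level in NEO day 0 replicate 1 of at least 10 times the mean of the other 5, the level in that library ran from 26.4 to 182 CPM. Their means over the other 5 day 0 libraries were 0.219 to 8.59 CPM, and over the day 1 libraries 0.534 to 9.29 CPM. For 7 of the 8 the day 1 mean was the higher of these last values. In the other 11 libraries the highest level of any of the 8 was 12.9 CPM.

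**Figure D1:**
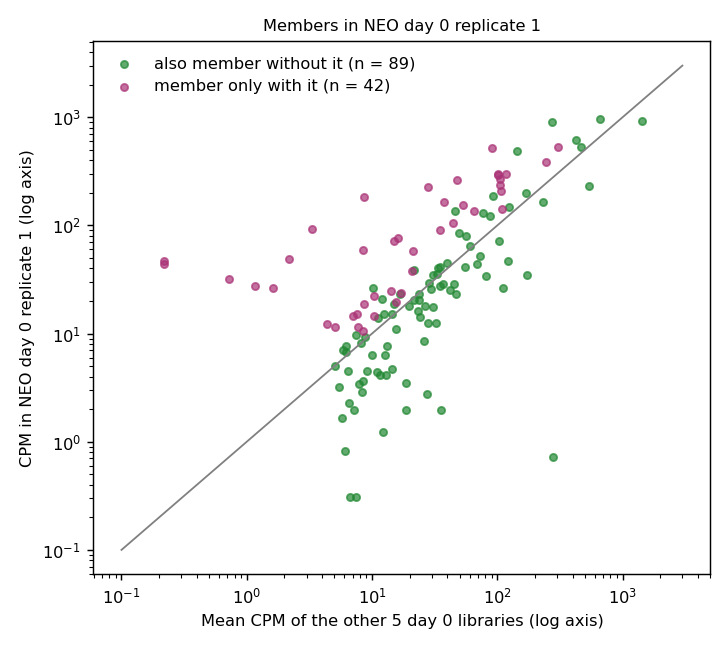
Each point is a member, with its mean CPM over the other 5 day 0 libraries on the horizontal log axis and its CPM in NEO day 0 replicate 1 on the vertical log axis. The line marks equal values. All 42 members that meet the rule only with that library lie above it by the way they were separated, at distances of up to 214 times.

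Among the 89 other members the same library was often the lowest of day 0. It was the lowest for 49 of them and the highest for 19, with a median of 0.709 times the mean of the other 5. In 30 of the 89 it was already at or under 0.6 times the day 0 mean, against 0 to 5 of the 89 in each other day 0 library. A member with a low level in that library always stays among the 89, so these counts follow in part from the split. The share over all identifiers is not given for them, and nothing is read from them. The widest gap was in a member with 283, 260 and 332 CPM in the PBS day 0 libraries, 222 and 286 CPM in NEO day 0 replicates 2 and 3, and 0.722 CPM (7 counts) in NEO day 0 replicate 1. On day 1 this gene had 68.3, 58.6 and 75.2 CPM in PBS and 76.8, 79.9 and 68.1 CPM in NEO. NEO day 0 replicate 1 was therefore the only library in which it was nearly absent, and the day 1 libraries lay close together at an intermediate level.

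By the way they were separated, the 89 members have a lower mean on day 1 than in the other 5 day 0 libraries, and only its size is described. The mean of the 6 day 1 libraries was a median of 0.372 times the mean of the 5 day 0 libraries other than NEO day 0 replicate 1, with a range of 0.178 to 0.506. In the 42 members the same ratio had a median of 0.514 and a range of 0.363 to 3.40. The 7 genes with a higher mean on day 1 form the upper end of that range.

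**Figure D2:**
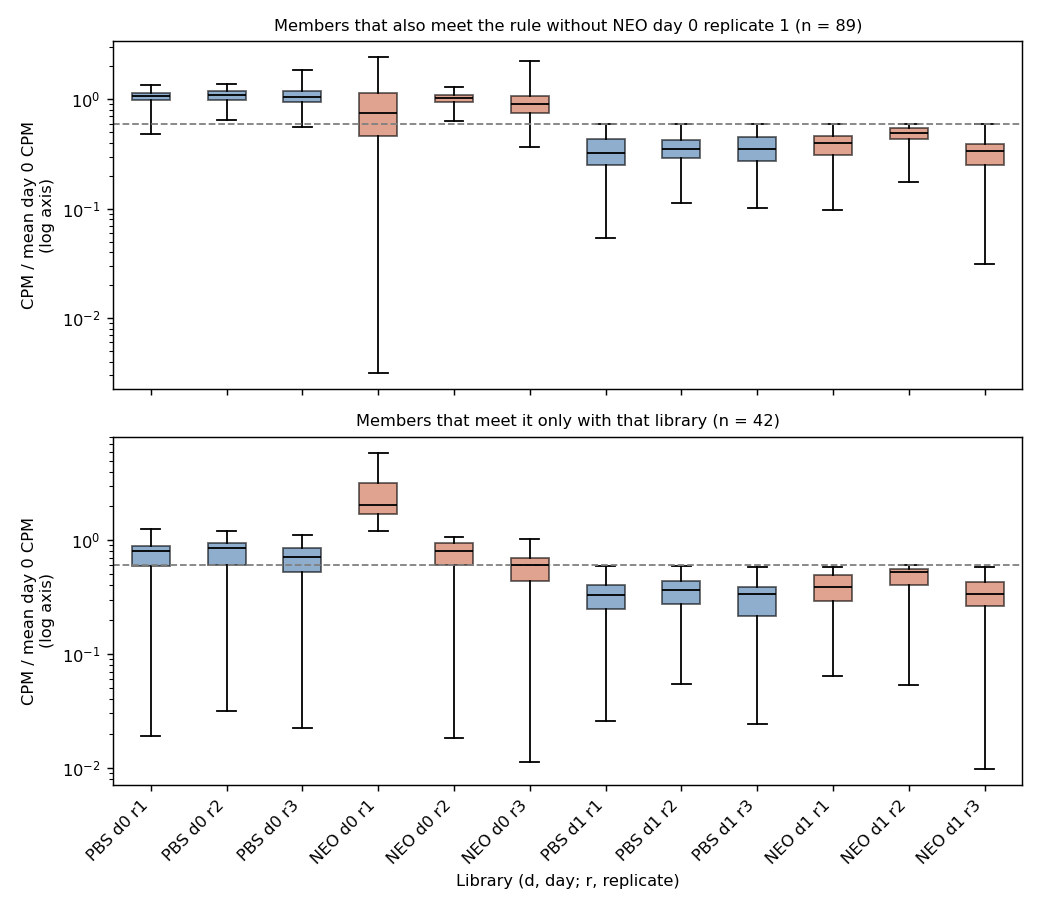
Boxes show, for each of the 12 libraries, the CPM of members divided by their mean day 0 CPM on a log axis, with the median, the quartiles and whiskers to the extremes, and a dashed line at the ceiling of 0.6. In the 89 members of the upper panel the PBS day 0 medians are 1.05 to 1.104 and the day 1 medians 0.323 to 0.497. In the 42 of the lower panel NEO day 0 replicate 1 has a median of 2.04, and its high position follows from how the 42 were separated.

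The members covered a wide range of levels, from 5.06 to 1344 CPM on day 0 with a median of 23.9 CPM. Genes of 5 to 20 CPM gave 58 members, genes of 20 to 100 CPM gave 49 and genes of at least 100 CPM gave 24. Relative to all identifiers at those levels these were 2.38%, 1.09% and 1.03%. The lowest class, which has the fewest counts, held the largest share. Depth was not low throughout, since 76 members had at least 50 counts in each of the 12 libraries, and 4 had 3 counts or fewer in some day 1 library.

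A few abundant genes made up most of the RNA of the group. The 10 members of highest level held 50.9% of the summed day 0 CPM and the single highest held 13.9%. That gene had 1637, 1607 and 1266 CPM in PBS on day 0 and 930, 1416 and 1205 CPM in NEO. On day 1 it had 620, 572 and 695 CPM in PBS and 755, 731 and 612 CPM in NEO. Every day 1 library lay under every day 0 library, and among the day 0 libraries NEO replicate 1 was the lowest.

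Together the 131 members took 0.952%, 0.958% and 0.893% of the counts in the PBS day 0 libraries, and 0.354%, 0.364% and 0.341% in PBS on day 1. In NEO they took 1.25%, 0.905% and 0.831% on day 0, and 0.420%, 0.486% and 0.344% on day 1. The NEO day 0 mean was 0.996% ± 0.225 (SD, n = 3), and 0.868% ± 0.0521 (SD, n = 2) without replicate 1. The 89 members alone took 0.734% ± 0.0231 in PBS and 0.6999% ± 0.0221 in NEO on day 0, and 0.265% ± 0.00553 in PBS and 0.308% ± 0.0520 in NEO on day 1 (SD, n = 3 each). With the 42 set aside, NEO day 0 replicate 1 gave 0.720%, against 0.676% to 0.747% in the other day 0 libraries. That share follows in part from how the 42 were separated, and nothing is read from its place in the range. The 42 members, which were separated by their high level in that library, took 0.533% there and 0.155% to 0.210% in the other 5.

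The depth of the difference varied among the members. The median of the 6 day 1 ratios to the day 0 mean was 0.371 over members, with a range of 0.0403 to 0.593. It was at most 0.5 in 124 members and at most 0.25 in 21. All 6 day 1 libraries were at most 0.5 times the day 0 mean in 51 members and at most 0.25 times in 3. Nearest to the ceiling among genes of at least 20 CPM, the 3 members just inside had highest day 1 ratios of 0.597, 0.597 and 0.599, and the 3 genes just outside had 0.602, 0.602 and 0.604. In 2 of the 3 genes on each side that highest library was NEO day 1 replicate 2.

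That library set the limit of the group more than any other. NEO day 1 replicate 2 was the highest of the 6 day 1 libraries in 93 of the 131 members, while each of the other 5 was the highest in 3 to 15. A further 140 genes exceeded the ceiling in NEO day 1 replicate 2 and in no other library, with a median ratio there of 0.679, against 2 to 23 such genes for each other day 1 library. Without it the rule would find 271 genes. In 26 members both day 1 libraries numbered 3 were lower than the other 4. The share over all identifiers is not given for this, and nothing is read from the count.

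The overlap of the days is given for each arm. In PBS all 3 day 1 libraries lay below all 3 day 0 libraries in 125 of 131 members, where 31.5% of the 9252 identifiers did so. In NEO this held for 92 members, where 14.8% of the identifiers did so. All 6 day 1 libraries lay below all 6 day 0 libraries in 91 members, where 10.1% of the identifiers did so. These counts follow from the rule in large part and nothing is read from them. NEO day 0 replicate 1 was at or below the highest day 1 library in 24 members, NEO day 0 replicate 3 in 16, and each other day 0 library in 7 to 9.

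By edgeR's quasi-likelihood test over 12449 genes, of which 130 were members, 107 members were called as lower on day 1 in PBS, where 13.5% of all genes tested were, and 97 in NEO, where 7.33% were (Benjamini-Hochberg adjusted p under 0.05). The rule used this contrast, so nothing is read from these counts. When the NEO libraries were fitted alone 10 members were called as lower, where 0.164% of 11574 genes were. The median log2 change of the members was -1.44 in PBS and -1.31 in NEO, and over all genes it was -0.00 in PBS and -0.02 in NEO. In the 89 members the medians were -1.63 in PBS and -1.21 in NEO, and -1.63 and -1.29 without NEO day 0 replicate 1, the library that separated them.

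**Figure D3:**
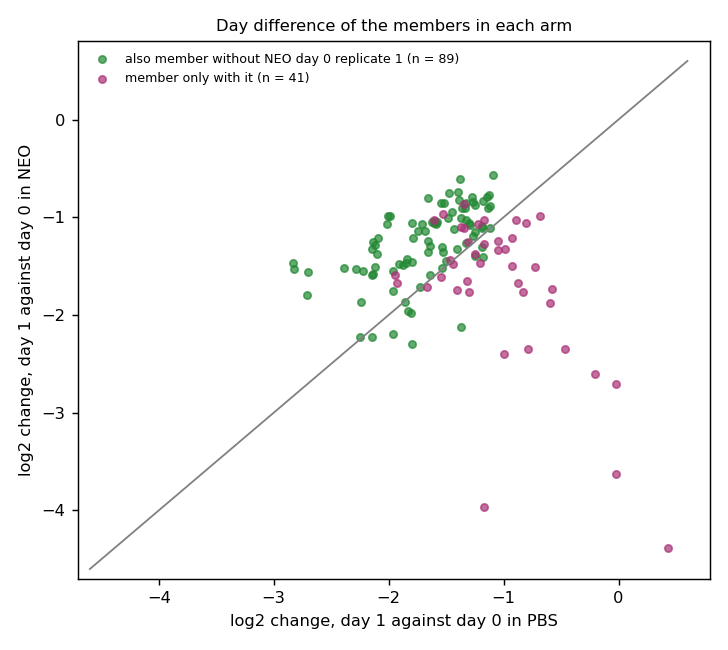
Each point is 1 of the 130 members tested, with its log2 change from day 0 to day 1 in PBS on the horizontal axis and in NEO on the vertical axis, and the line marks equal changes. Of the 89 members that do not need NEO day 0 replicate 1, 79 lie above the line, while members that need it reach -4.38 in NEO. The sets were separated by that library, which enters the NEO change, so their positions are a description.

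The arms share no library, but same-numbered NEO and PBS libraries of day 1 had correlated deviations (0.492, 0.633 and 0.743). A choice made in one arm is read below in the other, which is therefore not an independent reading. The rule applied to the PBS libraries alone gave 476 genes, of which 452 had at least 5 CPM on day 0 in NEO. Of these 452, 94 (20.8%) also met the rule in the NEO libraries alone, where 2.26% of all identifiers with at least 5 CPM did. In the other direction, 210 genes met the rule in NEO, 166 of them had at least 5 CPM in PBS, and 94 (56.6%) met it in PBS, where 5.18% of identifiers did. The difference between these shares was not tested. Of the 131 members, 112 met the rule in PBS alone, 97 in NEO alone, 78 in each arm alone and 0 in neither. The 0 follows from the rule, since a member always meets it in the arm with the higher day 0 mean.

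The member of at least 20 CPM with the lowest day 1 ratios was ENSRNOG00000011475. On day 0 it had 57.9, 60.9 and 35.5 CPM in PBS and 137, 53.4 and 22.2 CPM in NEO. On day 1 it had 10.4, 12.1 and 10.3 CPM in PBS and 16.2, 18.7 and 10.4 CPM in NEO. NEO day 0 replicate 1 was the highest library and NEO day 0 replicate 3 the lowest of day 0, yet the days did not overlap in either arm. The means were 51.4 CPM ± 13.9 and 10.96 CPM ± 0.989 in PBS, and 70.7 CPM ± 59.1 and 15.1 CPM ± 4.26 in NEO (SD, n = 3). Its log2 change was -2.25 ± 0.50 (SE) in PBS and -2.22 ± 0.50 (SE) in NEO, and -1.40 in NEO without NEO day 0 replicate 1.

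The next was ENSRNOG00000021719, a more abundant transcript by its mean CPM, without regard to gene length. On day 0 it had 253, 281 and 213 CPM in PBS and 899, 344 and 281 CPM in NEO. On day 1 it had 51.2, 81.7 and 38.5 CPM in PBS and 72.1, 163 and 91.4 CPM in NEO. The days did not overlap in either arm, and NEO day 0 replicate 1 was again the highest library. The means were 249 CPM ± 34.0 and 57.2 CPM ± 22.2 in PBS, and 508 CPM ± 340 and 109 CPM ± 48.1 in NEO (SD, n = 3). On day 1 the arms overlapped, with 72.1 CPM in the lowest NEO library and 81.7 CPM in the highest PBS library. Its log2 change was -2.15 ± 0.44 (SE) in PBS and -2.22 ± 0.44 (SE) in NEO, and -1.60 in NEO without NEO day 0 replicate 1. Both genes met the rule without that library.

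**Figure D4:**
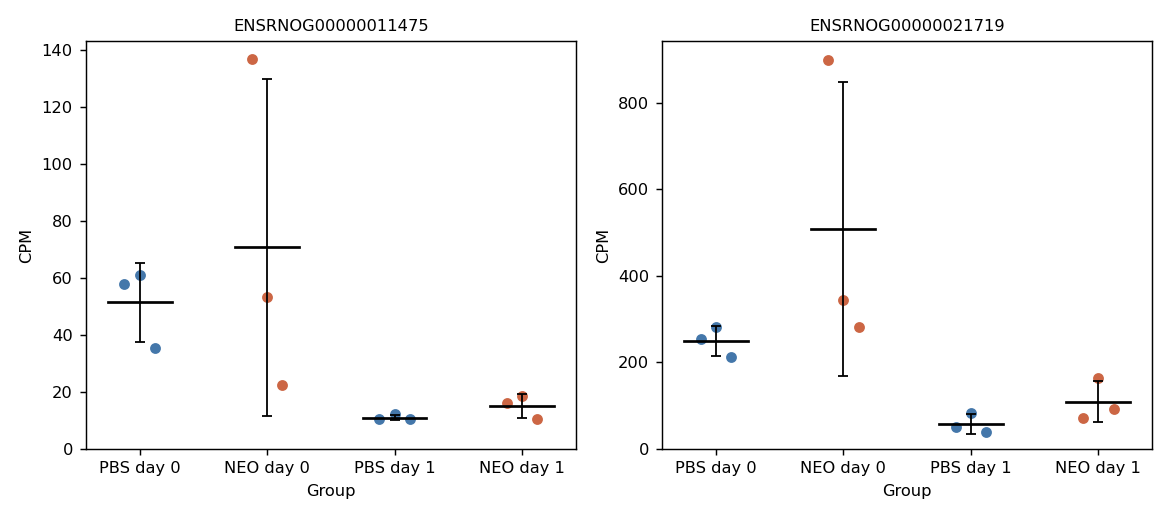
Points are the CPM of ENSRNOG00000011475 and ENSRNOG00000021719 in each library by group, with the mean as a bar and the SD as an error bar (n = 3). All day 1 points lie under all day 0 points of the same arm, and the highest NEO day 0 point, 137 and 899 CPM, is replicate 1 in both panels.

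The study asked how the antibiotic arm differed from PBS. The rule did not ask for a difference between the arms, but it used all 12 libraries, and 42 members passed it only through a high NEO day 0 replicate 1. Counts and medians over members in contrasts with NEO day 0 are therefore a description. On day 0 edgeR called 0 of the 130 members between NEO and PBS, where 0% of all genes tested were called. Unadjusted p under 0.05 was found for 11 members (8.46%) and for 832 of all genes (6.68%). Of the 11 members, 10 were higher in NEO, 9 were among the 42 that need NEO day 0 replicate 1 and 2 among the 89. Without that library 28 of 130 members had a higher level in NEO and 2 an unadjusted p under 0.05. DESeq2, which gave a p-value for 124 members, called 0 of them and 0.494% of 10732 genes (53 genes), with 9 members at an unadjusted p under 0.05. Limma voom called 0 members and 0% of all genes, with 5 members at an unadjusted p under 0.05. Unadjusted counts from DESeq2, limma voom, blocked fits and fits without a library are given, here and below, without the share over all genes. Nothing is read from them. The median log2 difference, NEO minus PBS, was -0.06 over the members, -0.21 over the 89 and 0.00 over all genes. Without NEO day 0 replicate 1 it was -0.12 over the members and -0.11 over the 89. In 66 of the 130 members (50.8%) the 95% interval stayed inside a 2-fold range, against 69.1% of all genes tested. In the other members it reached beyond.

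On day 1 most members were higher in NEO, though edgeR, fitted over the 12 libraries, again called 0 of 130, where 0% of all genes were called. The rule put a ceiling on every day 1 library, so counts and medians over members are a description here too. Of the 130, 110 had a positive log2 difference, against 6546 of all 12449 genes tested. Of the 89, 75 had one. The median was 0.24 over the members, 0.22 over the 89 and 0.01 over all genes. Without NEO day 1 replicate 2 the median was 0.13 and 93 of 131 were positive. All 3 NEO libraries lay above all 3 PBS libraries in 20 of the 131 members, where 7.44% of the 9252 identifiers did so. Unadjusted p under 0.05 was found for 9 members (6.92%), 8 of them higher in NEO, and for 517 of all genes (4.15%). DESeq2 called 0 of 124 members and 0.082% of 10973 genes (9 genes), with 10 members at an unadjusted p under 0.05. Limma voom called 0 members and 0% of all genes, with 15 members at an unadjusted p under 0.05.

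The day 1 libraries deviated together by number. A fit of these 6 libraries with the replicate number as a block was added after seeing the data and gave another count. It called 4 of 129 members, all higher in NEO by 0.49 to 0.91 on the log2 scale (edgeR adjusted p = 0.0127 to 0.0446), where 0.646% of 12075 genes were called. One of the 4 was ENSRNOG00000021719, with a log2 difference of 0.91 (edgeR adjusted p = 0.0178). Its difference was 0.92 (edgeR adjusted p = 0.836) in the same 6 libraries without the block. In the fit of all 12 libraries it was 0.93 ± 0.42 (SE, edgeR adjusted p = 0.995) without the block and 0.96 (edgeR adjusted p = 0.837) with it. In the fit of all groups without the block its difference was 0.56 when NEO day 1 replicate 2 was left out. Unadjusted p under 0.05 was found for 33 members in the blocked fit, 32 of them higher in NEO. The share over all genes is not given for this, and nothing is read from the count. In the fit of all 12 libraries with that block 0 members and 0% of all genes were called, and 12 members had an unadjusted p under 0.05.

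**Figure D5:**
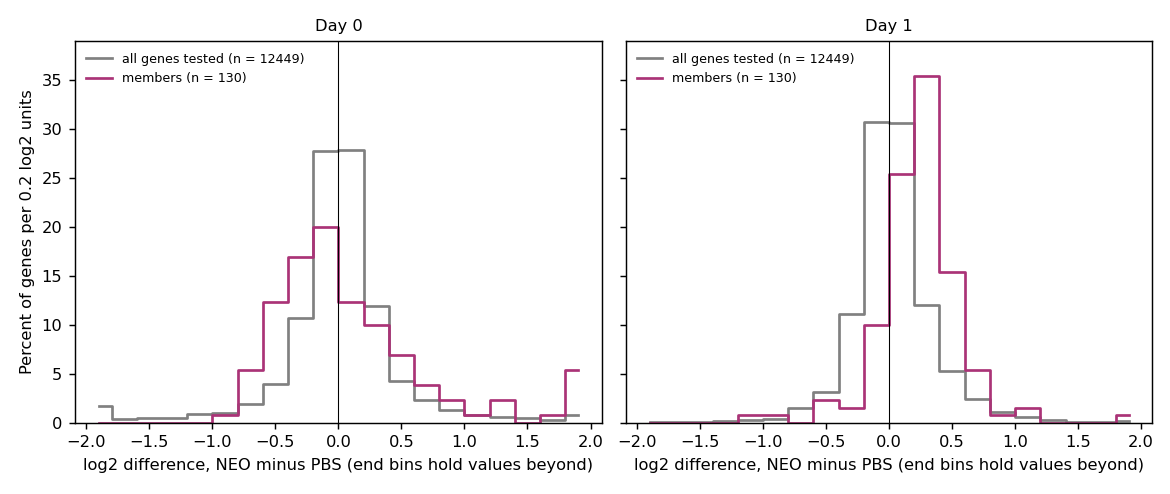
Lines give the percent of genes in bins of the log2 difference, NEO minus PBS, on day 0 and day 1, for the 130 members and for all 12449 genes tested, with values past the axis counted in the outermost bins. On day 1 the members are displaced to the right of zero, with 110 of 130 positive, and on day 0 58 of 130 are positive. The rule used these libraries, so both positions are a description. Among all 12449 genes 6546 are positive on day 1 and 6308 on day 0.

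The difference of the day effects, NEO minus PBS, was called for 0 of the 130 members, where 0% of all genes were called (edgeR, smallest adjusted p 0.863 among members). Unadjusted p under 0.05 was found for 10 members (7.69%), 9 with a smaller decrease in NEO, and for 608 of all genes (4.88%). DESeq2 and limma voom called 0 members and 0% of all genes, with 8 and 19 members at an unadjusted p under 0.05. The median difference was 0.26 over the members, with 90 of 130 positive, and 0.42 over the 89, with 79 positive. Without NEO day 0 replicate 1 it was 0.34 over the members, with 115 positive, and 0.29 over the 89. Over all genes the median was 0.00, with 6258 of 12449 positive. In 37 of the 130 members (28.5%) the 95% interval stayed inside a 2-fold range, against 57.2% of all genes tested. Without NEO day 1 replicate 2 the median was 0.12, with 76 of 131 positive.

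Replicate spread is given last, as a description. The median coefficient of variation over the 3 libraries was 11.97% for members and 7.25% for all identifiers of at least 5 CPM in PBS day 0, and 15.1% and 8.82% in PBS day 1. In NEO it was 39.5% and 17.0% on day 0, and 22.8% and 12.6% on day 1. For the 89 members it was 12.02%, 14.8%, 30.5% and 21.4% in PBS day 0, PBS day 1, NEO day 0 and NEO day 1. Members have lower counts on day 1 by the rule, and the part of level in this spread was not tested.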

How the data were processed

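The authors deposited raw counts of reads by Ensembl gene identifier, in 1 table for each of 12 libraries. The submitters' processing notes name the tools featureCounts 1.5.0-p1, STAR 2.5.2a and bcl2fastq 2.17.1.14 and the build rn6. Annotation release, strand setting and handling of multi-mapping reads: not given in the sources used here, so overlapping genes or near-identical copies may share reads. Groups came from the sample labels, which number lungs and name no animals. The p-values then rest on the spread among these samples, which may be technical. Every pair of libraries differed beyond sampling noise (smallest chi-square per degree of freedom 5.07).

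The members and lists were chosen with earlier results of these data known. CPM for the rule used raw library totals. Tests used edgeR 4.0.16 in R 4.3.3 (filterByExpr, TMM, glmQLFit with 4 group means, glmQLFTest, Benjamini-Hochberg over all 12449 genes, threshold 0.05). Standard errors are the log2 change divided by the square root of F. One member failed the count filter. DESeq2 1.42.0 and limma 3.58.1 voom (with quality weights) were alternatives, beside other scalings, count filters, fits of the compared groups alone, a replicate block and leaving out each library. Scripts were tested on simulated data.

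Named members were to be those with the lowest median day 1 ratio among members with a symbol and at least 20 CPM on day 0. With 0 symbols matched, identifiers took their place and the first 2 are printed. The gene lists, marker lists and promoter motifs planned by symbol were not used. Other single members described without identifier were picked after their values were seen.

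Same-numbered NEO and PBS libraries of day 1 had correlated deviations from their group means (0.492, 0.633 and 0.743). On day 0 the values were -0.0578, 0.105 and 0.105. The main tests used no pairing on either day, and fits with the replicate number as a block were alternatives.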

Additional observations from a re-analysis of the deposited data

How the results depend on the processing

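The number of members was 131. It was 51 at a ceiling of 0.5 and 368 at 0.7, 197 with a day 0 minimum of 1 CPM and 73 with 20 CPM, 476 in the PBS libraries only and 210 in the NEO libraries only. With TMM or DESeq2 scaling it was 160 or 135, which held 131 and 129 of the members. With a library left out it ran from 119 (without NEO day 0 replicate 1, of which 89 were members) to 271 (without NEO day 1 replicate 2). Without both day 1 libraries numbered 3 it was 148, and with NEO day 0 replicate 1 dropped as well (added after the data were seen) 133, of which 89 were members.

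The counts of 0 members called between the arms remained 0 in every setting run except the fit of day 1 libraries with the replicate block, added after seeing the data, which gave 4. Leaving out a library gave 0 to 0 calls in each of these contrasts, with 2 to 33 members at an unadjusted p under 0.05 on day 0, 3 to 18 on day 1 and 5 to 19 for the difference of the day effects. Calls between the days use the contrast that chose the members, so the counts that follow are no support for them. The replicate block over all 12 libraries gave 107 members called between the days in PBS (3395 of all genes) and 88 in NEO (1868 of all genes). With a library left out the count in PBS ran from 92 (2202 of all genes, without PBS day 1 replicate 3) to 122 (4468, without NEO day 0 replicate 1). In NEO it ran from 52 (854 of all genes, without NEO day 1 replicate 1) to 107 (2207, without NEO day 0 replicate 1). It was 10 in the NEO libraries alone (125 of all genes), 0 in these with the replicate block (0 of all genes, 92 members at an unadjusted p under 0.05) and 56 without both day 1 libraries numbered 3 (1504 of all genes).

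For ENSRNOG00000011475 the difference between the arms on day 0, 0.42, turned to -0.12 by limma voom, and with a library left out ran from -0.41 (without NEO day 0 replicate 1) to 0.83. The difference of its day effects, 0.03, ran from -0.39 to 0.85 with a library left out and was negative in 7 such fits (-0.124, -0.385, -0.0811, -0.105, -0.0247, -0.132 and -0.0158). For ENSRNOG00000021719 it was -0.08 and turned to 0.15 by limma voom, ran from -0.45 to 0.54 with a library left out, and was positive in 5 such fits (0.545, 0.029, 0.146, 0.012 and 0.262). None of these was called. The causes were not tested.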

Other observations

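The mirrored rule, with each day 1 library at least the day 0 mean divided by 0.6 and a day 1 mean of at least 5 CPM, was met by 412 identifiers, 4.38% of those with that day 1 mean, against 131 for the members described above.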
